A study of Mus musculus with 18 samples.

Results

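Interferon-induced genes were read across 5 mouse strains in RNA of the kidney cortex. A probe was a member if its gene symbol began with the name of an interferon, an interferon receptor chain, an interferon regulatory factor (Irf), a Stat gene, or one of the Ifi, Ifit, Ifitm, Isg, Oas, Mx, Gbp, Usp18, Iigp, Igtp or Irgm genes. Symbols were those of the table that held B6 and NZW, where 141 of 46643 probes, for 85 of 34509 gene symbols, were members. The other table held BALB/C, DBA1 and 129/svj and no symbols, so members were found there through a shared search key, which gave 35 of 46147 probes for 32 symbols. Of these, 18 had a key used once in each table. A further 34 probes of the first table shared 17 keys between them, and 89 probes were read in B6 and NZW only. No probe carried the symbols Usp18 or Isg15, and Ifih1 lies outside the rule. The rule also takes in genes that are not known as interferon targets, such as Irf2bp1 and Irf2bp2, which encode partners of Irf2, and Isg20l1, whose current symbol is Aen.

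Kidney RNA came from 15 mice, 3 per strain, each 2 months old and each challenged with anti-GBM antibody, which binds the glomerular basement membrane and causes nephritis. B6 and BALB/C are called resistant to this nephritis, and DBA1, 129/svj and NZW sensitive. There were 18 Illumina Mouse WG-6 arrays, since mouse 1 of BALB/C, DBA1 and 129/svj had a repeat array, which was averaged with the first. No unchallenged mouse was measured, so a strain difference present before the challenge and one that follows it cannot be told apart. The sex of the mice and the time after the challenge are not given in the labels. Each strain is held by a single table, so strains were compared within a table only.

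Interferons are secreted proteins that cells release on sensing nucleic acids of pathogens or damaged cells, or, in the case of interferon gamma, that activated lymphocytes release. Type I interferons bind the Ifnar1 and Ifnar2 chains and interferon gamma binds Ifngr1 and Ifngr2. Both receptors act through Jak kinases on Stat proteins. A complex that holds Stat2 and Irf9 binds the interferon-stimulated response element, and pairs of Stat proteins bind the gamma-activated site, and the genes so induced encode antiviral enzymes, GTPases that act on intracellular pathogens, membrane proteins that block virus entry, and further Irf and Stat proteins. In the kidney, tubule cells, endothelial cells and infiltrating macrophages can all respond.

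Promoters of some members named below are shown to let these elements be seen beside the values. The printed windows were chosen because they hold a match before the start. For Gbp3 and Irf8, which have 2 windows each, the window with the most matches was taken. Members with a called probe but no match before the start, such as Ifitm3, are not printed. The printed windows therefore do not show how often called members hold these elements. RefSeq promoter windows of build GRCm38.p6, from 250 bases before to 50 bases after a gene's start, were found for 71 of the 84 current member symbols. They were searched on both strands for GAAA, any 2 bases and GAAA again, the core of the interferon-stimulated response element, and for TTCNNNGAA, the core of the gamma-activated site. The first was found in 3.44% of all 32851 windows and in at least 1 window of 30 of the 71 member genes. The second was found in 8.3% of all windows and in at least 1 window of 25 of the 71. Counted by gene, the shares over all 27025 symbols were 3.99% and 9.55%, against 42.3% and 35.2% of the member genes. The member shares cover tested and untested genes alike. Among them are interferon genes, such as Ifna1 and Ifna2, that hold a match but were detected in no B6 or NZW mouse. A match is a description of these letters and not a measured binding site, and the windows are reference sequence, so differences between the strains are not seen in them. The bases just before the start are printed below from the 5′ to the 3′ end, on the strand of the gene, with matches in capitals. Gbp7 is the current symbol of the gene that the array calls Gbp6, and Irgm2 that of Iigp2. The first 4 belong to genes with a called difference between B6 and NZW, Igtp and Irgm2 to GTPases that varied between mice of a strain, and Irf8 to a gene that was low in BALB/C.
Gbp7: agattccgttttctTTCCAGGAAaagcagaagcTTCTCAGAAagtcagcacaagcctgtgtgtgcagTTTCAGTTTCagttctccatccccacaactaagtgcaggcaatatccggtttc
Gbp3: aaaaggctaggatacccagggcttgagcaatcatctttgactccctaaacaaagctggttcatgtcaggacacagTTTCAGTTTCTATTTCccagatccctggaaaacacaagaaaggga
Oas1g: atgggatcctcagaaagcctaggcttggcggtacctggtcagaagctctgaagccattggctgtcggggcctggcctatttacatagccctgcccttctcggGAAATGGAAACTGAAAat
Ifitm2: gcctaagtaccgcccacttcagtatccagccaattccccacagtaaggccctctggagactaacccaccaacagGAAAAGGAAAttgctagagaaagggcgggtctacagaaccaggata
Igtp: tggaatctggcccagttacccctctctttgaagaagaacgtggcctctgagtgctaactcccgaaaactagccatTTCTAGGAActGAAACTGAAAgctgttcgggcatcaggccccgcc
Irgm2: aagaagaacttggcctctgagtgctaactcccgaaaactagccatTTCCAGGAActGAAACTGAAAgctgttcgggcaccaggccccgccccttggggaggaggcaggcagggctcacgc
Irf8: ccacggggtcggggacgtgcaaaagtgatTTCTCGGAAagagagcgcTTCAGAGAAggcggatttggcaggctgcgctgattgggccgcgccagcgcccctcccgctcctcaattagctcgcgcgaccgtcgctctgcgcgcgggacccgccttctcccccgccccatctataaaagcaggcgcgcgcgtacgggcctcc
The Gbp7 window, at chr3:142530216-142530335, holds 1 response element core and 2 gamma-activated cores. The Gbp3 window, at chr3:142559924-142560043, and the Oas1g window, at chr5:120887614-120887733 on the minus strand, each hold 2 overlapping response element cores. The Ifitm2 window, at chr7:140955962-140956081 on the minus strand, holds 1. Igtp, at chr11:58199436-58199555, and Irgm2, at chr11:58214857-58214976, share 1 core of each kind in the same arrangement. The Irf8 window, at chr8:120736158-120736357, holds 2 gamma-activated cores and no response element core. No match to either motif lay in the 200 bases before the start of Irf7.

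Most members were not measurable in these kidneys. A probe was tested if it was detected, with a detection p-value of 0.05 or less against the negative control beads, in at least 3 mice of its table. In the table of B6 and NZW, 56 of 141 member probes (39.7%), for 41 symbols, passed, against 35.9% of all probes, and 81 member probes were detected in no mouse. In the table of BALB/C, DBA1 and 129/svj, 10 of 35 (28.6%) passed, against 34.3% of all probes, and 22 were detected in no mouse. Since a probe could pass through a single strain, the tested members are not a sample of all members.

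**Figure D1:**
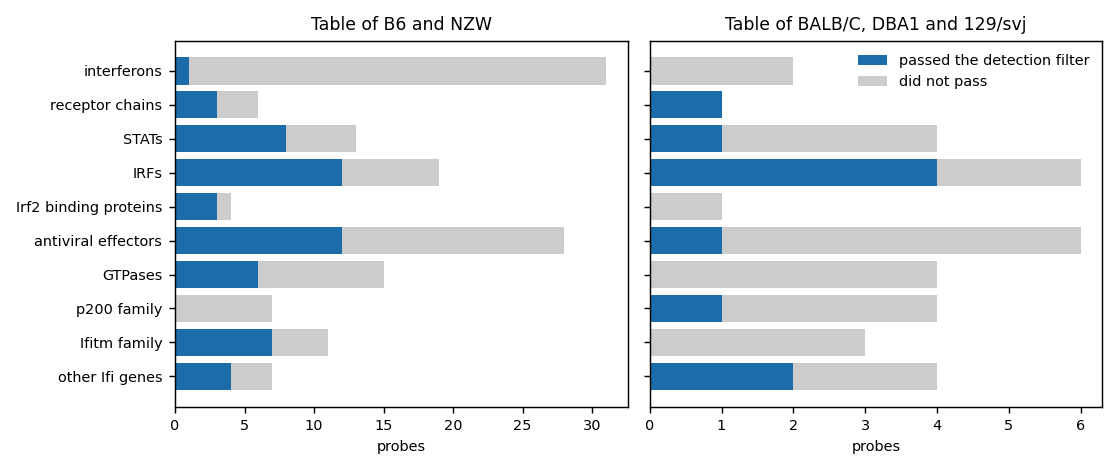
Bars count the member probes of each role that passed the detection filter (blue) or did not (grey) in each table, with the number of probes on the x axis. In the table of B6 and NZW, 1 of 31 interferon probes and 12 of 19 IRF probes passed.

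The interferons themselves were mostly not detected. Of 31 probes for 17 interferon genes, 30 were detected in no mouse of B6 or NZW, among them those for Ifng and Ifnb1. The exception was Ifne1, now Ifne, an interferon known from epithelia, which had log2 signals of 5.41, 5.27 and 5.01 in B6 and 5.85, 5.44 and 5.74 in NZW. Its NZW mice were all above its B6 mice, but the difference did not pass (adjusted p = 0.075). None of the 7 probes of the p200 family, DNA-binding proteins such as Ifi202b and Ifi204, passed in B6 and NZW, and 6 of the 7 were detected in no mouse. Ifit1, Mx1, Iigp1, Gbp2 and Ifnar1 were also detected in no mouse of these strains.

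Which interferon-induced genes differ between a resistant and a sensitive strain was first asked in B6 against NZW, where most members can be read. Of the 56 tested member probes, 13 differed at an adjusted p below 0.05, 9 higher and 4 lower in B6. That is 23.2%, beside a background of 18.8% of all 16766 tested probes (1549 higher, 1610 lower), so the members were called about as often as other probes. The roles below hold few probes each, and their counts were not tested against this share. The median log2 difference, B6 minus NZW, was 0.04 over the members and -0.04 over all tested probes. The split depended on scaling: with signals scaled to the 75th percentile of each array the median of all probes was -0.13, 1352 probes were higher and 2269 lower, and 12 members were called, 6 in each direction. Log2 differences here are from the fit with limma, whose adjusted p-values are by Benjamini-Hochberg over all tested probes, with 3 mice per strain. Whether the sequence of a strain differs under a probe was not tested.

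**Figure D2:**
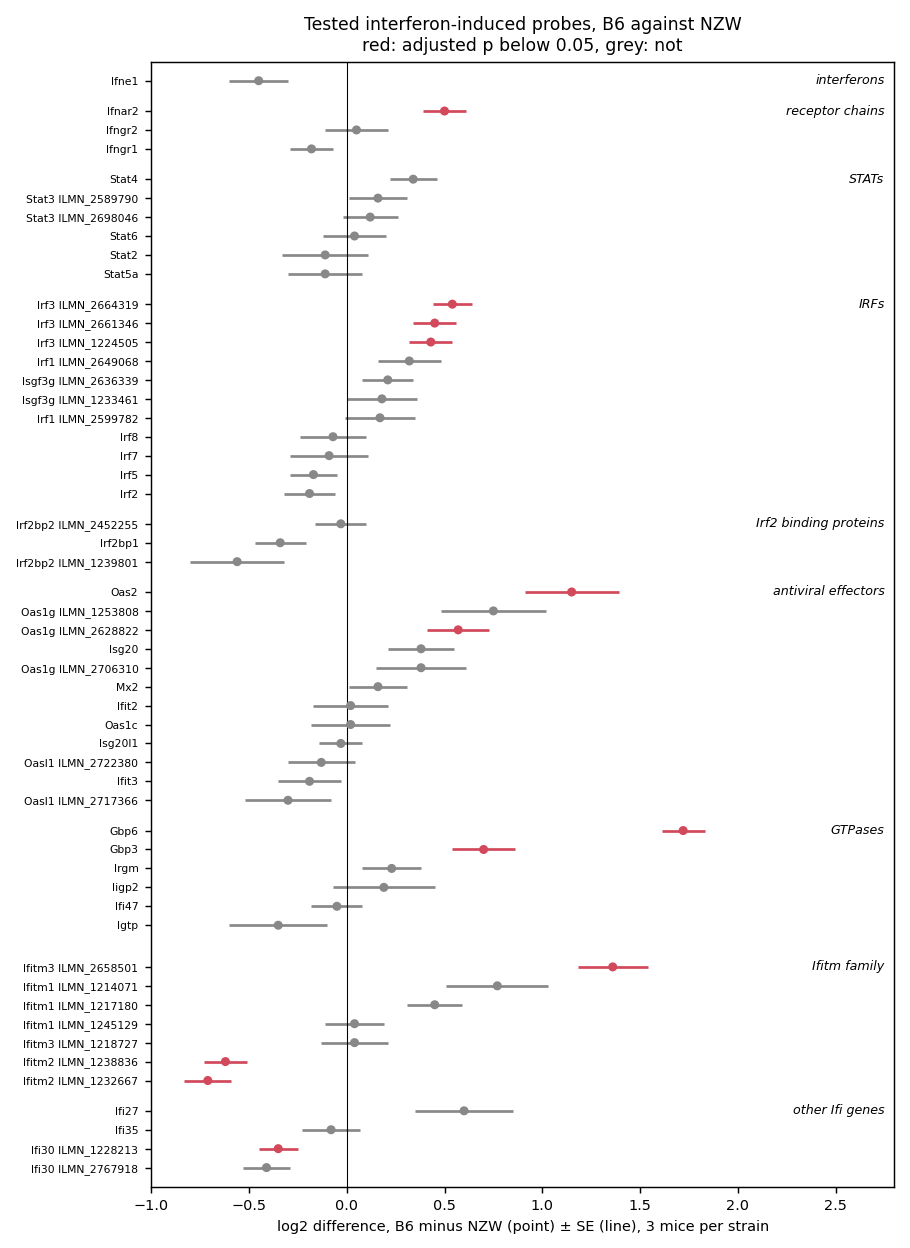
Each point is the log2 difference, B6 minus NZW, of 1 of 53 tested member probes with its standard error as a line, grouped by role, and red marks an adjusted p below 0.05. Gbp6, Ifitm3 ILMN_2658501 and Oas2 lie above 1 on this axis, while Stat2, Irf7 and Irf8 lie near 0.

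Among receptor chains, 1 of 3 tested probes rose, while 18.8% of all tested probes were called in either direction. Ifnar2, a chain of the type I interferon receptor, had log2 signals of 7.38, 7.28 and 7.41 in B6 and 6.88, 6.71 and 6.96 in NZW. All B6 mice lay above all NZW mice. The log2 difference was 0.50 ± 0.11 (SE), a 1.42-fold higher signal in B6 (adjusted p = 0.014), and the call was lost without B6 mouse 1 or without B6 mouse 3, with adjusted p up to 0.059. A second Ifnar2 probe, ILMN_1225311, was detected in no mouse of these strains. The chains of the interferon gamma receptor did not pass, with a log2 difference of -0.18 (95% interval -0.43 to 0.08) for Ifngr1 and 0.05 (-0.31 to 0.40) for Ifngr2. A second Ifngr2 probe was detected in no mouse either.

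None of the 8 tested STAT probes passed in the limma fit, and 1 had an unadjusted p below 0.05. Stat2, a transcription factor that acts downstream of type I interferons, had a log2 difference of -0.11 (95% interval -0.61 to 0.39). Isgf3g, now Irf9, its DNA-binding partner, had 2 probes at 0.21 (-0.09 to 0.50) and 0.18 (-0.23 to 0.58). These intervals leave room for differences of about the size called elsewhere. Stat4, which acts downstream of interleukin 12, had 3 probes. On ILMN_1236059, which met the filter through B6 alone, it was detected in 3 of 3 B6 mice, at 5.57, 5.48 and 5.37, and in no NZW mouse, and did not pass (adjusted p = 0.082). The other 2 Stat4 probes were detected in no mouse of either strain.

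Of 12 tested IRF probes 4 were called, beside 18.8% of all tested probes, and the 3 described here rose. All 3 were probes of Irf3, the factor that activates the interferon beta gene after nucleic acid sensing. Probe ILMN_2664319 read 11.76, 11.82 and 11.81 in B6 and 11.22, 11.25 and 11.31 in NZW. The strains did not overlap on any of the 3 probes. The log2 differences were 0.54 ± 0.10 (SE, adjusted p = 0.0057) for ILMN_2664319, 0.45 ± 0.11 (adjusted p = 0.025) for ILMN_2661346 and 0.43 ± 0.11 (adjusted p = 0.026) for ILMN_1224505. Scaled to the 75th percentile they were 0.35, 0.36 and 0.31, with adjusted p = 0.074, 0.072 and 0.098, so the Irf3 calls rest on quantile normalization. The call of ILMN_2661346 was also lost with the methods' t-test, and that of ILMN_1224505 with a replicate block. ILMN_2664319 passed without any 1 of the 6 mice, while ILMN_2661346 passed only without NZW mouse 3 or B6 mouse 1, and ILMN_1224505 only without NZW mouse 1 or NZW mouse 3.

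Other factors tied to interferon responses did not pass. Irf1, an early target of interferon gamma, had 2 tested probes at 0.32 (95% interval -0.04 to 0.69) and 0.17 (-0.23 to 0.57). Its other probes, ILMN_1216637 and ILMN_2624100, were detected in no mouse. Irf7, which amplifies the type I response, differed by -0.09 (-0.55 to 0.37), and Irf8, a factor of macrophages and dendritic cells, by -0.07 (-0.47 to 0.33).

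Of 12 tested probes of antiviral effectors 2 rose and none fell, while 18.8% of all tested probes were called in either direction. Oas2, an oligoadenylate synthetase that senses double-stranded RNA and activates RNase L, read 6.39, 6.84 and 6.35 in B6 and 4.94, 5.89 and 5.30 in NZW. It was detected in 3 of 3 B6 mice and in 1 of 3 NZW mice, and the strains did not overlap. The log2 difference was 1.15 ± 0.24 (SE), a 2.21-fold higher signal in B6 (adjusted p = 0.011), and it passed without any 1 of the 6 mice. The probe met the detection filter through B6, where it was high, and with NZW near the background the size of the difference rests on the background correction, without which it was 0.62 (adjusted p = 0.008). It was lost with the methods' t-test (adjusted p = 0.11). Oas1g, of the same family, had 3 tested probes. ILMN_2628822 read 6.40, 6.99 and 6.57 in B6 and 5.98, 6.15 and 6.12 in NZW, a difference of 0.57 ± 0.16 (SE, adjusted p = 0.038), with no overlap. The call held without B6 mouse 1 but was lost without any 1 of the other 5 mice, without the filter (adjusted p = 0.076) and with the methods' t-test (adjusted p = 0.15), and without background correction the difference was 0.33. Probes ILMN_1253808 and ILMN_2706310 differed by 0.75 (adjusted p = 0.089) and 0.38 (adjusted p = 0.31), and B6 mouse 1 was within the NZW range on both. Oas1 genes are related to each other, and whether the Oas1g probes also read another of them was not tested. Mx2, a GTPase that blocks virus replication, differed by 0.16 (adjusted p = 0.50), and Ifit3, which binds viral RNA complexes, by -0.19 (adjusted p = 0.47). A second Ifit3 probe was detected in no mouse.

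Among GTPases 2 of 6 tested probes rose and none fell, while 18.8% of all tested probes were called in either direction. Gbp6, a guanylate-binding protein whose probe matches the transcript now called Gbp7, had the smallest adjusted p of all members. It read 7.72, 7.84 and 7.89 in B6 and 6.12, 6.15 and 6.01 in NZW. Every B6 mouse was above every NZW mouse, and the gap between the strains was many times the spread within either (SD 0.09 and 0.08). The log2 difference was 1.72 ± 0.11 (SE), a 3.30-fold higher signal (adjusted p = 8.3e-06), and it passed under all 7 other settings in which it was tested and without any 1 of the 6 mice, with 1.13 without background correction as its smallest value. Gbp3 read 9.41, 9.55 and 9.82 in B6 and 9.03, 8.61 and 9.02 in NZW. The strains did not overlap, with a difference of 0.70 ± 0.16 (SE, adjusted p = 0.016), which was lost without B6 mouse 3 (adjusted p = 0.061) and with the methods' t-test (adjusted p = 0.10). The immunity-related GTPases did not pass. Igtp differed by -0.35 (95% interval -0.92 to 0.21) and Irgm, now Irgm1, by 0.23 (-0.12 to 0.59). A second Irgm probe was detected in no mouse.

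The Ifitm family, small membrane proteins that restrict virus entry, changed in both directions, with 1 probe higher and 2 lower of 7 tested. Of all tested probes 18.8% were called. Ifitm2 read 12.52, 12.56 and 12.44 in B6 and 13.20, 13.02 and 13.17 in NZW on probe ILMN_1238836. Its second probe, ILMN_1232667, read 11.18, 11.27 and 11.29 in B6 and 11.87, 11.84 and 12.16 in NZW. B6 was below NZW in every mouse on both probes, by -0.62 ± 0.11 (SE, adjusted p = 0.004) and -0.71 ± 0.12 (SE, adjusted p = 0.0039), and both passed under all 7 other settings and without any 1 of the 6 mice, though neither reached a log2 difference of 1. For Ifitm3 the probes disagreed. ILMN_2658501 read 12.01, 12.36 and 11.87 in B6 and 10.74, 11.01 and 10.41 in NZW, a difference of 1.36 ± 0.18 (SE, adjusted p = 0.001), a 2.57-fold higher signal in B6 with no overlap. ILMN_1218727 read 11.18, 11.64 and 11.04 in B6 and 11.39, 11.31 and 11.03 in NZW, a difference of 0.04 ± 0.17 (SE, adjusted p = 0.90), with full overlap. So the level of Ifitm3 itself cannot be said to differ from these probes. Ifitm1 had 3 tested probes at 0.77, 0.45 and 0.04, with adjusted p = 0.076, 0.06 and 0.89.

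Of 4 tested probes of the other Ifi genes 1 fell, while 18.8% of all tested probes were called in either direction. Ifi30, a lysosomal thiol reductase induced by interferon gamma, read 10.53, 10.63 and 10.50 in B6 and 10.94, 10.85 and 10.92 in NZW on ILMN_1228213. The strains did not overlap, with a difference of -0.35 ± 0.10 (SE, adjusted p = 0.042), but the call was lost without any 1 of the 6 mice (adjusted p up to 0.14) and with a replicate block (adjusted p = 0.10), and scaled to the 75th percentile the difference was -0.54. Its other probe differed by -0.41 (adjusted p = 0.052). Ifi27, a mitochondrial protein and common interferon marker, read 9.09, 10.13 and 9.36 in B6 and 8.99, 9.10 and 8.71 in NZW. B6 mouse 2 stood high and B6 mouse 1 lay within the NZW range, and the difference of 0.60 did not pass (adjusted p = 0.14). The 3 tested probes of Irf2bp1 and Irf2bp2 did not pass, with a median of -0.34.

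**Figure D3:**
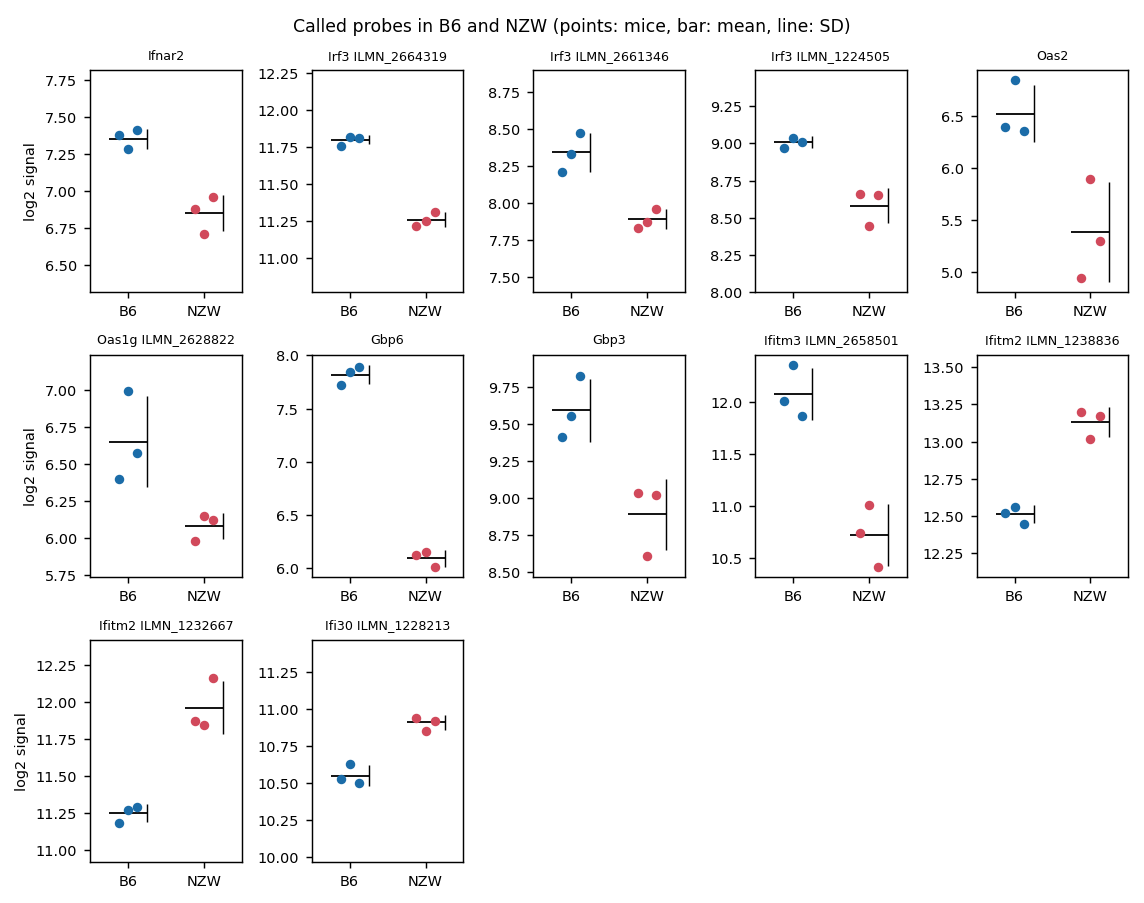
Log2 signals of 12 called member probes by mouse in B6 (blue) and NZW (red), with the mean as a bar and the SD as a line. On each panel the 3 mice of a strain lie apart from the 3 of the other, by the widest margin for Gbp6. Only called probes are drawn, so such gaps follow largely from how the panels were chosen.

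In the second table the same question was asked of BALB/C, a resistant strain, against DBA1 and 129/svj. Only 10 members could be tested, 4 of them IRFs, and none of the 4 GTPase and 3 Ifitm probes passed the filter. Of the genes described above as called, Ifnar2, Oas2, Gbp3, Gbp6, Ifitm2 and Ifitm3 share no key with this table, and the Oas1g row, which pairs with a probe that was not called above, was detected in no mouse. Irf3 and Ifi30 could be tested. Against DBA1, 3 of 10 were called, 1 higher and 2 lower in BALB/C, of which the lower ones are described here, beside a background of 5.75% of all 15818 tested probes. Against 129/svj, 2 of 10 were called, both lower, beside 4.82%. Between the sensitive strains DBA1 and 129/svj, 1 of 10 was called, beside 4.48%. The median log2 differences of the 10 members were -0.19, -0.12 and -0.01, and those of all tested probes 0.01, 0.01 and 0.00. These comparisons share strains, so they are not independent of each other.

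Irf7 was low in BALB/C. It read 5.89, 5.75 and 5.90 in BALB/C, 7.24, 7.58 and 7.51 in DBA1, and 7.34, 6.47 and 8.22 in 129/svj. Every BALB/C mouse was below every mouse of the other strains, and the 129/svj mice were spread over a wide range that took in all DBA1 mice. The log2 difference was -1.60 ± 0.35 (SE) against DBA1, a 3.02-fold lower signal (adjusted p = 0.025), and -1.49 ± 0.35 (SE) against 129/svj, a 2.82-fold lower one (adjusted p = 0.037). In BALB/C the probe was near the background, being detected in 2 of 3 mice, and the repeat arrays of BALB/C mouse 1 read 5.62 and 6.17. Without background correction both calls were lost, with differences of -0.77 (adjusted p = 0.056) and -0.75 (adjusted p = 0.074). Without the filter on dim probes both were lost as well (adjusted p = 0.061 and 0.09), and with the methods' t-test that against 129/svj was lost (adjusted p = 0.33). The call against DBA1 was lost without any 1 BALB/C or DBA1 mouse (adjusted p up to 0.10), and that against 129/svj without any 1 BALB/C mouse, DBA1 mouse 1 or 2, or 129/svj mouse 1 (adjusted p up to 0.14). DBA1 and 129/svj differed by 0.10 (95% interval -0.67 to 0.88).

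Irf8, which macrophages and dendritic cells need to mature, was low in BALB/C as well. It read 6.38, 6.28 and 6.50 in BALB/C, 7.53, 7.38 and 6.96 in DBA1, and 7.16, 7.09 and 7.60 in 129/svj. The BALB/C mice lay apart from the others, while DBA1 and 129/svj overlapped. The log2 difference was -0.91 ± 0.19 (SE, 1.87-fold lower, adjusted p = 0.022) against DBA1 and -0.90 ± 0.19 (SE, 1.87-fold lower, adjusted p = 0.024) against 129/svj. Repeat arrays of a mouse differed by 0.07 to 0.11. Without background correction both differences were -0.46 and passed (adjusted p = 0.037 and 0.043). With the methods' t-test both calls were lost (adjusted p = 0.12 and 0.13), and with a replicate block that against 129/svj was lost (adjusted p = 0.052). The first call was lost without any 1 BALB/C mouse or DBA1 mouse 1 or 2 (adjusted p up to 0.10), and the second without any 1 BALB/C mouse or 129/svj mouse 1 or 3 (adjusted p up to 0.11).

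Macrophage markers moved the same way in part. Among the 7 macrophage probes of these strains 5 were tested, with a median log2 difference of -1.02 in BALB/C against DBA1 and -0.40 against 129/svj. Of these 5, 1 (20%, beside 5.75% of all probes), Cd14, was called lower against DBA1 (-2.79 ± 0.54 SE, adjusted p = 0.014). The summed signal of the 5 probes was 472 to 769 in BALB/C, 1230 to 2310 in DBA1 and 537 to 2060 in 129/svj, so BALB/C lay apart from DBA1 and overlapped 129/svj. The part of macrophages in the Irf7 and Irf8 differences was not tested, and in whole tissue fewer cells of a type and less RNA per cell cannot be told apart.

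Of the 10 tested members, 7 did not pass in any of these comparisons. Irf3, which was higher in B6 than in NZW, read 7.17, 7.38 and 7.49 in BALB/C, 7.51, 7.59 and 6.84 in DBA1 and 7.12, 7.60 and 7.30 in 129/svj, and the strains overlapped. Ifngr1 ran from 7.01 to 7.88 in BALB/C, 7.16 to 8.67 in DBA1 and 7.42 to 8.54 in 129/svj, with log2 differences of -0.34 (95% interval -1.26 to 0.58) and -0.54 (-1.46 to 0.37) for BALB/C against DBA1 and 129/svj. Mx2 was detected in no BALB/C mouse, in DBA1 mice 2 and 3 at 5.98 and 6.19, and in 2 of 3 129/svj mice, where it ran from 5.32 to 6.90. Its adjusted p-values against BALB/C were 0.49 and 0.39. Stat3, Ifi30, Ifi35 and Ifi203 had adjusted p-values between 0.36 and 0.99 over the 3 comparisons. The Ifi203 key also belongs to a symbol outside the members.

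**Figure D4:**
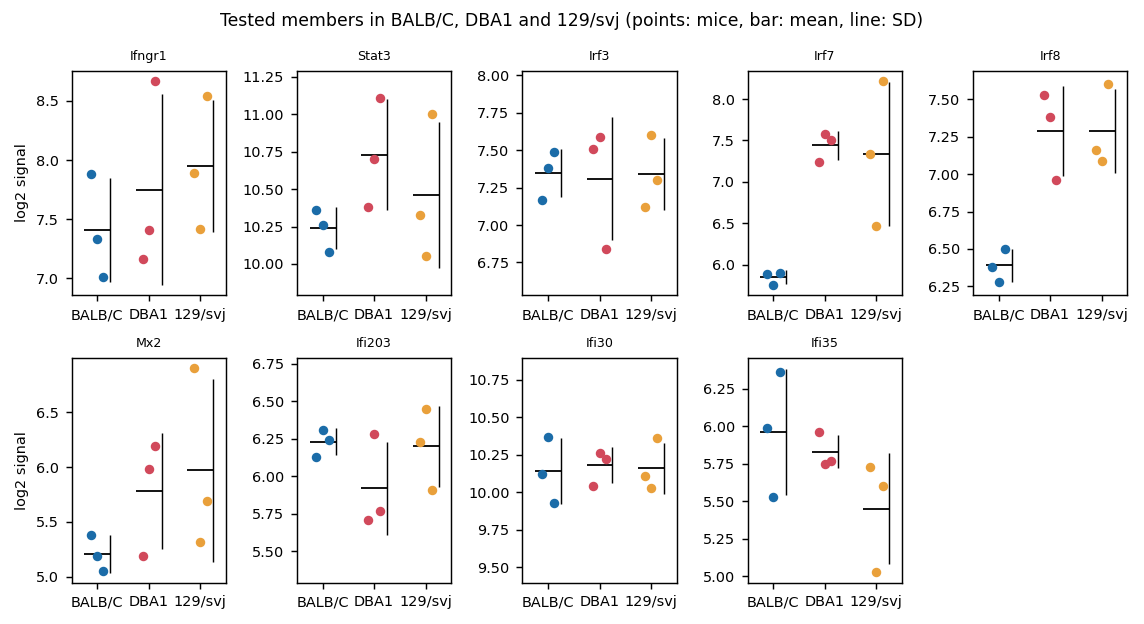
Log2 signals of 9 tested members by mouse in BALB/C (blue), DBA1 (red) and 129/svj (orange), with the mean as a bar and the SD as a line. The BALB/C mice lie below the other strains for Irf7 and Irf8, and the strains overlap for Irf3 and Ifngr1.

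Whether resistant strains differ from sensitive strains as a class could be asked of 6 members with paired probes, by averaging the differences within the tables. Irf7 and Irf8 were called lower in the resistant strains and none higher, so 2 of 6, beside a background of 13.4% of 6896 tested pairs. The averaged log2 differences were -0.82 ± 0.21 (SE, adjusted p = 0.015) for Irf7 and -0.49 ± 0.13 (SE, adjusted p = 0.018) for Irf8. These averages came from a single table. B6 minus NZW was -0.09 for Irf7 and -0.07 for Irf8, while BALB/C minus the mean of DBA1 and 129/svj was -1.54 and -0.90. The difference between the 2 within-table differences was itself called for both, at -1.45 ± 0.42 (SE, adjusted p = 0.033) and -0.83 ± 0.26 (SE, adjusted p = 0.048), beside a background of 11.8%. With the strain as a random block, neither averaged difference passed (adjusted p = 0.16 for each). Without background correction the averages were -0.41 and -0.26, and both passed. The Irf7 average was also lost with the methods' t-test (adjusted p = 0.057) and without B6 mouse 1 (adjusted p = 0.052), and the Irf8 average without NZW mouse 2, B6 mouse 2 or BALB/C mouse 2 (adjusted p up to 0.06). For the other 4, Ifi35, Ifitm6, Ifngr1 and Mx2, the averaged difference had adjusted p-values of 0.45 to 0.68.

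Mice of a strain differed in these genes by as much as some strains did. Within NZW, mouse 2 was the highest of the 3 on 31 of the 56 tested member probes (55.4%), whereas it was the highest on 38.2% of all tested probes, and mouse 1 was the lowest on 32 (57.1% of members and 36.4% of all). Among the GTPases NZW mouse 2 was highest on 5 of 6 probes. Igtp read 9.29, 10.24 and 9.50, and Iigp2, now Irgm2, read 8.90, 10.06 and 9.13 in NZW mice 1, 2 and 3, so mouse 2 stood 0.75 and 0.93 above the next mouse on the log2 scale. Irgm read 9.39, 9.82 and 9.23. Oasl1 on ILMN_2717366 read 7.08, 8.04 and 7.41. Gbp6 did not share this, with NZW mouse 2 at 6.15 and the others at 6.12 and 6.01. In B6, mouse 2 was highest on 30 of 56 (53.6%), against 29% of all probes, and mouse 1 lowest on 27 of 56 (48.2%, against 33%). Oas1g on ILMN_1253808 read 7.84, 8.92 and 8.55, Stat2 read 5.70, 6.63 and 6.29 and Irf7 read 7.30, 7.93 and 7.73 in B6 mice 1, 2 and 3. In 129/svj, mouse 2 was lowest on 7 of 10 tested members (34.3% of all probes) and mouse 3 highest on 6 (36.2% of all). In DBA1, mouse 1 was lowest on 7 of 10 (27.4% of all). Cell markers moved with some of these mice. The summed signal of macrophage markers was 2060 in 129/svj mouse 3, against 745 and 537 in mice 1 and 2, and that of tubule injury markers was 11600, against 4080 and 3140. In B6 mouse 2 macrophage markers summed to 12400, against 9140 and 8320, and neutrophil markers to 7320, against 1490 and 5670 in mice 1 and 3. In NZW mouse 2 macrophage markers were lowest, at 5550 against 6050 and 6680. In DBA1 mouse 1 they were lowest as well, at 1230 against 1720 and 2310. Their part in the differences between mice was not tested. Probes of a family are not independent of each other, so these counts describe the mice and carry no test.

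**Figure D5:**
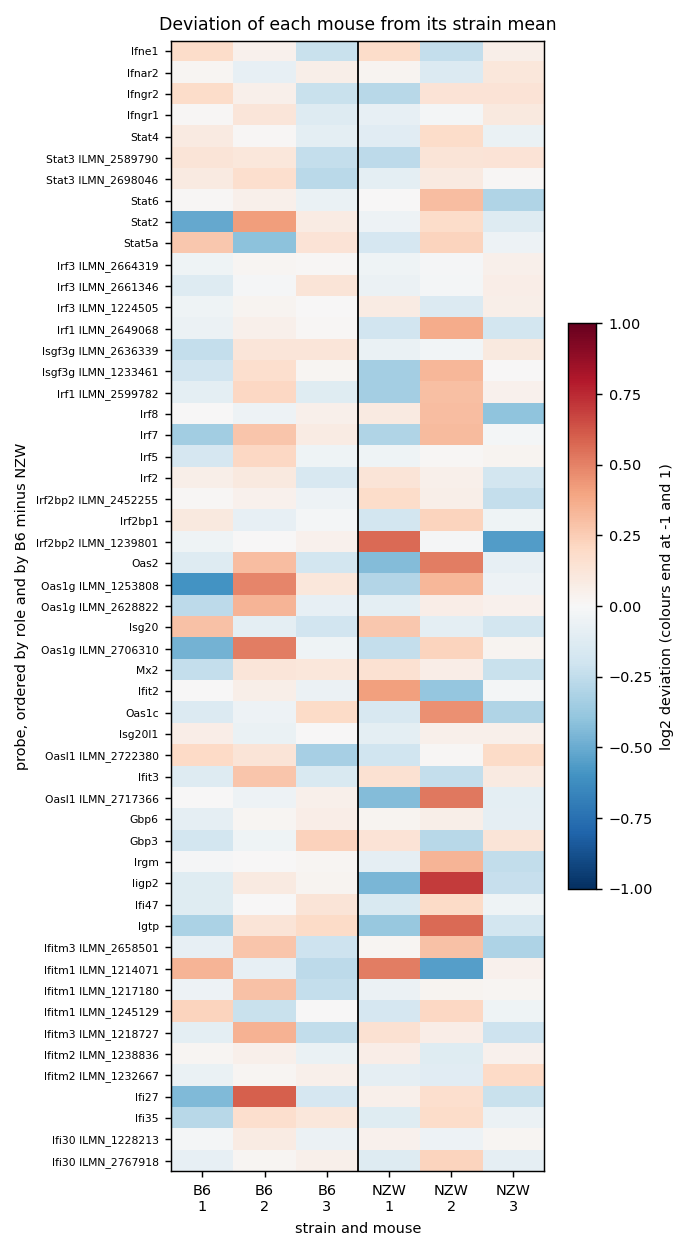
Colours show how far each mouse lay from the mean of its strain on the log2 scale, for 53 tested member probes (rows, ordered by role and by B6 minus NZW) in the 6 mice of B6 and NZW (columns). NZW mouse 2 is red for Igtp, Iigp2, Irgm and Oasl1 ILMN_2717366, and B6 mouse 1 is blue for Stat2, Ifi27 and the 3 Oas1g probes, palest for ILMN_2628822.

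Genes of the pathway outside the naming rule were read as lists. Among 24 tested probes for Jak-Stat signalling and its inhibitors, 1 was higher and 3 lower in B6 than in NZW, with a median of -0.12. That was 16.7%, near the background of 18.8% of all tested probes. Jak1, a kinase on both interferon receptors, was lower by -0.92 ± 0.16 (SE, adjusted p = 0.0039), and Cish, a cytokine-induced inhibitor, higher by 0.43 (adjusted p = 0.028). The remaining 2 calls were probes of Crebbp, a general coactivator. None of the 9 tested probes of this list was called by limma between BALB/C, DBA1 and 129/svj, and 1 had an unadjusted p below 0.05, in BALB/C against 129/svj. Of 14 tested probes for nucleic acid sensors and adaptors, Trim25 was higher (0.63, adjusted p = 0.0084) and Ddx58, which encodes the RNA sensor RIG-I, lower (-0.47, adjusted p = 0.02) in B6. These calls were 14.3% of the list, beside 18.8% of all probes. Dhx58 was the single call of 7 in BALB/C (14.3%, beside 5.75% of all probes), lower than in DBA1 by -0.87 (adjusted p = 0.023). Of 34 tested probes for other interferon-induced genes, 5 were higher and 2 lower in B6, with a median of 0.22. That was 20.6%, again near the 18.8% of all probes. Trim30 rose by 1.43 ± 0.17 (SE, adjusted p = 0.00061), Samd9l by 1.22 ± 0.25 (SE, adjusted p = 0.0095), and Rsad2, which encodes viperin, by 0.47 (adjusted p = 0.018). The other rises were Slfn2 at 1.07 and Sp100 at 0.54. Lower were Plscr2, at -1.12 ± 0.17 (SE, adjusted p = 0.0019), and Eif2ak2, the RNA-activated kinase PKR, at -0.47 (adjusted p = 0.029). In BALB/C, Ly6e was the single call of 12 in each comparison, lower by -2.87 ± 0.30 (SE, adjusted p = 0.00029) than in DBA1 and by -2.49 ± 0.30 (SE, adjusted p = 0.0007) than in 129/svj. That was 8.33% of the list in each, beside 5.75% and 4.82% of all probes.

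Chemokines and antigen presentation genes that interferon gamma induces were also read as a list. BALB/C was lower than DBA1 on 6 and higher on 1 of 13 tested probes, with a median log2 difference of -1.56, and lower than 129/svj on 5 of 13, with a median of -0.69. That was 53.8% and 38.5% of the probes, beside backgrounds of 5.75% and 4.82%. The lower calls against DBA1 were H2-K1 (-4.13), H2-D1 (-1.98 and -1.72 on its probes), Cd74 and Psmb9. Those against 129/svj were H2-K1 (-3.56), Cd74, Psmb9 and H2-Eb1. The shares thus rest on few genes, most of them H2 genes or counted on several probes. Whether the sequence of a strain differs under these probes was not tested. Cd74, the invariant chain of MHC class II, was lower in BALB/C on both probes, by -1.56 and -1.72 than in DBA1 and by -2.48 and -2.57 than in 129/svj. Psmb9, a subunit of the immunoproteasome, was lower by -3.24 ± 0.28 (SE, adjusted p = 8.1e-05) and -2.15 ± 0.28 (SE, adjusted p = 0.0013). H2-Eb1 went both ways, with BALB/C higher than DBA1 by 2.77 and lower than 129/svj by -1.92. The summed signal of the 13 probes was 4070 to 4640 in BALB/C, 11100 to 16200 in DBA1 and 7700 to 15800 in 129/svj, with BALB/C apart from both. In B6 against NZW 4 of 37 probes of this list were higher and none lower (10.8%, beside 18.8% of all probes), with a median of -0.02. They were 2 probes of H2-Ab1 at 6.84 and 4.32, Psmb9 at 3.72 and Ccl5 at 0.60. DBA1 and 129/svj differed on 2 of 13 probes (15.4%, beside 4.48% of all probes). In DBA1 a probe of H2-D1 was higher, at 1.36, and H2-Eb1 was lower, at -4.68.

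Markers of cell types were checked beside these values. In B6 against NZW the background was 18.8% of all tested probes called. The share called was 69.2% for tubule injury, 44.4% for proximal tubule and 42.9% for podocyte markers. It was 23.1% for distal nephron, 16.7% for endothelial and 11.1% for macrophage markers. The short lists of B cell, natural killer cell and plasmacytoid dendritic cell markers had 66.7%, 33.3% and 33.3%. Proximal tubule markers were detected on 18 of 20 probes in B6 and NZW and on 11 of 12 in the other table, and 8 of the 18 were lower in B6 than in NZW, with summed signals of 88400 to 103000 in B6 and 114000 to 120000 in NZW. Macrophage markers had a median difference of 0.46 over 18 tested probes in B6 against NZW, 2 of them called, Fcer1g at 5.44 and C1qb at 1.02. The uncalled probes ran from -0.27 (Csf1r) to 0.75 (Cd68). The summed signal of the 18 probes was 8320 to 12400 in B6 and 5550 to 6680 in NZW. Fcer1g is part of that sum, and the sum without it was not computed. B cell markers were called higher in B6 on 2 of 3 probes, both for Igh-6, and natural killer cell markers on 1 of 3, Nkg7. Of 9 tested probes for plasmacytoid dendritic cell markers 2 were higher and 1 lower in B6, but the 2 that rose belong to Klk1b27, a kallikrein that the kidney also makes. None of the 6 T cell, 8 neutrophil and 2 sex-linked probes was called in B6 against NZW, while 2 of 12 endothelial probes were higher, 3 of 7 podocyte probes lower, and 2 of 13 distal nephron probes higher and 1 lower. Markers of tubule injury were called on 9 of 13 probes, 6 higher in B6, such as Lcn2 at 1.80, and 3 lower, such as Havcr1 at -2.77. Between BALB/C, DBA1 and 129/svj the T cell, neutrophil, endothelial, podocyte, tubule injury and sex-linked lists held no call, and no tested probe stood for B cells, natural killer cells or plasmacytoid dendritic cells. There, Calb1 and Pvalb of the distal nephron were higher in BALB/C than in DBA1 (25% of the list, beside 5.75% of all probes). Slc5a2 of the proximal tubule was higher and Slc22a6 lower in BALB/C than in 129/svj (18.2%, beside 4.82%). The part of these cell types in the member differences was not tested.

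Across arrays, the median signal was 81.1 to 89.8 in the table of B6 and NZW and 118 to 152 in the other, and 30.5% to 36.4% of the probes were detected. The median standard error over the beads of a probe was 5.26% to 6.29% of its signal. Over the 10 tested members the repeat arrays of a mouse differed by a median of 0.16 on the log2 scale, and by 0.59 at most. The labels give the mice of a strain as separate samples and say no more of their origin, so p-values measure only the spread between these samples.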

How the data were processed

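The files are 2 tables of different strains, in which the authors deposited unnormalized signal intensity values of the scanner software and a detection p-value beside each. Per the file headers the tables also hold bead standard errors and bead numbers. Within each table, background was removed by normexp with an offset of 16 (limma's nec, which infers the control beads from detection p-values). Arrays were then quantile normalized and put on the log2 scale, and repeat arrays were averaged. Testing took the probes that 3 or more mice detected at 0.05. The linear model (limma 3.58.1, R 4.3.3) gave each strain a mean, its variances were moderated by eBayes, and a call needed a Benjamini-Hochberg p under 0.05. Differences within tables were averaged over pairs of probes with a search key unique in both tables (19886 pairs). The deposited signals have no stated array normalization, the quantile step assumes like distributions in all mice, and the offset compresses differences of dim probes. Bounds on levels below background were not computed. Precision is limited by how few arrays there were. The members, the lists and the comparisons were chosen with earlier results of these data known. In each comparison up to 8 called rises and 8 called falls were named, with the detected probes of the receptor chains, Stat2, Irf1, Irf7, Irf8, Irf9, Mx1, Mx2, Ifit1, Ifit3, Gbp2, Igtp, Iigp1, Irgm, Ifi202b, Ifi27 and Ifitm3, and other members named were chosen after their values were seen. Some members are counted but not reported here. Current symbols came from RefSeq (GRCm38.p6), by accession for 86 probes, symbol for 53 and synonym for 1, and 1 had none. The alternatives covered background correction, scaling, filter, blocks, repeat arrays, a minimum size, the methods' t-test and each mouse left out. The procedure was tested on simulated data. Tables were joined with Python 3.11.15 and pandas 2.3.3.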

Additional observations from a re-analysis of the deposited data

Results flagged for a closer look

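Irf7 and Irf8 stood out because the difference between a resistant strain and its sensitive strains was not alike in the 2 tables. For Irf7, BALB/C minus the mean of DBA1 and 129/svj was -1.54 on the log2 scale and B6 minus NZW was -0.09, and the difference of -1.45 ± 0.42 (SE) between them passed (limma, adjusted p = 0.033). For Irf8 the values were -0.90 and -0.07, and the difference of -0.83 ± 0.26 (SE) passed (limma, adjusted p = 0.048). In the Irf7 test the call was lost under 4 of 8 alternatives and without 8 of the 15 mice, and in the Irf8 test under 8 of 9 alternatives and without 12 of the 15 mice, taken 1 at a time. The table goes with the strains compared, so a difference between strains and a difference between the tables' arrays cannot be told apart.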

How the results depend on the processing

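Kidney RNA was read on few arrays, most member probes lay at the background, and the second table held 10 testable members, so absence of a call there says little. No called member value turned its direction under an alternative: of 368 such values 259 kept the call and 109 lost it. In B6 against NZW, 6 of 56 member directions, all uncalled, turned with scaling to the 75th percentile.

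The counts of called members were 13 (B6 against NZW), 3 (BALB/C against DBA1), 2 (BALB/C against 129/svj), 1 (DBA1 against 129/svj), 2 (resistant against sensitive) and 2 (difference between the tables). The counts of all called probes were 3159, 909, 763, 709 and 921 in the first 5. Counts outside 1.5 times these are given here. Where calls also needed a log2 difference of 1 or more, members numbered 3 in B6 against NZW, 1 in BALB/C against 129/svj, 0 in resistant against sensitive and 1 in the difference between the tables, and all called probes 922, 538, 487, 460 and 146. With joint quantile normalization over paired probes, which leaves 6 members to test, they were 0 in B6 against NZW, 0 in DBA1 against 129/svj and 1 in the difference between the tables, and all called probes in B6 against NZW were 678, 403 of them higher (59.4%). The methods' t-test, adjusted by Benjamini-Hochberg, called 8, 1, 0, 0, 1 and 0 members, and 1852, 399, 318 and 218 of all probes in the first 4. At an unadjusted p below 0.05 of that test the members were 16, 3, 2, 1, 2 and 2, and all probes 4772, 2728, 2235, 1785 and 1683. With probes detected in every mouse, the members were 1 in BALB/C against 129/svj, 1 in resistant against sensitive and 1 in the difference between the tables, and all called probes 587, 466, 368 and 453, in the comparisons after B6 against NZW. Without background correction, the members were 1 in BALB/C against 129/svj and 0 in the difference between the tables. Without a filter they were 1 in BALB/C against 129/svj, 2 in DBA1 against 129/svj and 0 in the difference between the tables. With the first array of mouse 1 only, they were 2 in DBA1 against 129/svj and 1 in the difference between the tables. In that last comparison the members were 0 with a normexp offset of 50 and 1 with scaling to the 75th percentile. With the strain as a random block, resistant against sensitive held 0 members and 125 probes. The cause of these moves was not tested, except that an added minimum size leaves fewer calls by construction.

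The labels do not say that replicate numbers pair the mice, and same-numbered mice of different strains of a table had correlations of their deviations from -0.259 to 0.387, of which 4 of 12 were above 0.1. With a replicate block, the called members were 13, 3, 1, 1, 2 and 1, in the order above, and all called probes 2620, 913, 740, 678 and 882.

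Leaving out 1 mouse at a time gave 7 to 13 members in B6 against NZW, 1 to 3 in BALB/C against DBA1, 0 to 2 in BALB/C against 129/svj, 1 to 1 in DBA1 against 129/svj, 1 to 2 in resistant against sensitive and 0 to 2 in the difference between the tables. For all probes it gave 1739 to 2635, 450 to 1167, 442 to 951, 426 to 736 and 681 to 1019.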
